A study of Arabidopsis thaliana with 12 samples.

Results

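The genes described here build the plant cuticle or regulate its formation. They comprise 36 Arabidopsis loci, among them the SHINE transcription factors SHN1 to SHN3, chosen by locus name and role, out of 28327 loci on the array. Their 56 probes were found by the locus name in the probe annotation. Of the 36 loci, 35 had at least 1 probe that passed the filter on dim probes and were tested, together with 20906 loci in all. The exception was GPAT8 (AT4G00400), whose single probe was not well above background in any channel.

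The study followed inflorescences of plants about 4 weeks old that were mutant for ap1-1 and cal-1 and carried pAP1:AP1-GR, in which the floral regulator APETALA1 (AP1) is expressed from its own promoter as a fusion with the glucocorticoid receptor. All samples carried the transgene and both mutations, so that no wild-type inflorescence was measured. Dexamethasone (DEX, 2 μM, daily) activates the fusion protein, and the cauliflower-like meristems then begin to form flowers nearly in step. Day 8, day 4 and day 2 were days after the first DEX treatment, and day 0 was uninduced: the labels describe it as collected before induction, the methods as collected right after a mock solution. Mock-treated tissue of a later day was not analysed here, so that DEX activation and time since the start of treatment cannot be told apart. Each sample pooled inflorescences of many plants, and there were 4 independent replicate sets. Each of 12 arrays with 2 colours compared 2 days of 1 set, as day 2 over day 0, day 4 over day 2 or day 8 over day 4, with 4 arrays per step. Sets 1 and 3 carried Cy5 on the later day, sets 2 and 4 Cy3. Neighbouring steps share RNA extracts of the day between them, so that their values are not independent.

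The cuticle is a lipid layer that epidermal cells deposit on the outer surface of aerial organs. Its matrix is cutin, a polyester of hydroxylated fatty acids and glycerol, and it is filled and covered with waxes, which are alkanes, alcohols, esters and other derivatives of very-long-chain fatty acids. Both start from activated fatty acids, which are either oxidised and esterified to glycerol for cutin or elongated in the endoplasmic reticulum for wax, and the products leave the cell through ABC transporters. In flowers the cuticle keeps young organs from fusing and forms the ridged surface of petals.

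All values below are changes on the log2 scale of the later over the earlier day, given for the brightest probe of a gene, with the standard error (SE) of a limma model over the 12 arrays. A change was called when its Benjamini-Hochberg adjusted p was below 0.05 and its fold-change (FC) was at least 1.8, which is 0.85 on the log2 scale. Per channel 55.7% to 73.6% of probes were well above background, and no spot was saturated. The floral identity genes LFY, AP3, PI, AG and SEP3 were higher at day 2 than at day 0, 5 of 5 called, with changes between 0.89 and 5.41. For replicates 3 and 4 of day 2 over day 0 the scanner file did not match the deposited ratios, so that quality marks of these 2 arrays were not used. Over all loci the median change was -0.10 for day 2 over day 0, 0.06 for day 4 over day 2 and -0.08 for day 8 over day 4.

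Between day 0 and day 2, 11 of 35 genes were called lower at day 2, while 5.42% of all loci were called lower. Of the 35 estimates, called or not, 34 lay below 0, with a median of -0.61, as did 63.3% of those of all loci. SHN2 alone was called higher, and 8.47% of all loci were. On 4 of 4 arrays 26 of the 35 genes had a ratio below 0, as did 35.4% of all loci. The count of genes called lower was 8 (without SHN3, CER1 and GPAT6) with every array centred on a median of 0, and 4 with normexp and loess of the scanner intensities on the 10 matching arrays (local background capped), where SHN3, MYB106, CER2, CER1, MAH1, GPAT6 and HTH lost the call and the step rests on 2 arrays. Over these same days 6 of 7 touch and handling genes were called higher at day 2 (changes from -0.36 to 5.36, median 4.00), and their part in the decline of the cuticle genes was not tested.

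From day 2 to day 4, 5 of 35 genes were called higher at day 4, namely SHN1, MYB16, CER1, WSD1 and HTH, against 3.23% of all loci. SHN2 was the 1 gene called lower, against 5.58% of all loci, and 29 were not called. Of the 35 estimates 31 lay above 0, with a median of 0.30, as did 60.9% of those of all loci. Of the 7 touch and handling genes, 6 were called lower at day 4 (median -2.07).

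From day 4 to day 8 the group split. Called higher at day 8 were 9 of 35 genes, SHN1, MYB106, MYB16, CER2, CER1, GPAT6, CYP86A4, CYP86A7 and CYP77A6, against 12.3% of all loci. No cuticle gene was called lower, against 5.23% of all loci. In the limma fit 2 genes had negative changes with an adjusted p below 0.05, PDF2 (-0.45, adjusted p = 0.00261) and ABCG13 (-0.51, adjusted p = 0.000179). Both were under the 1.8-fold minimum. The median change of the 35 genes was 0.16, while the 9 called genes changed by 1.43 to 5.40. Of the 26 genes not called, 8 had an adjusted p below 0.05 in the limma fit, with changes from -0.51 (ABCG13) to 0.73 (LACS2). The share of all loci with such changes was not computed. Of the 7 touch and handling genes, 6 were called higher at day 8 (median 1.90), the direction of the 9 called cuticle genes, and their part in it was not tested. The sum of the 3 steps, day 8 over day 0, was called higher for 9 genes (14.9% of all loci) and lower for 1 gene (11.2% of all loci).

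**Figure D1:**
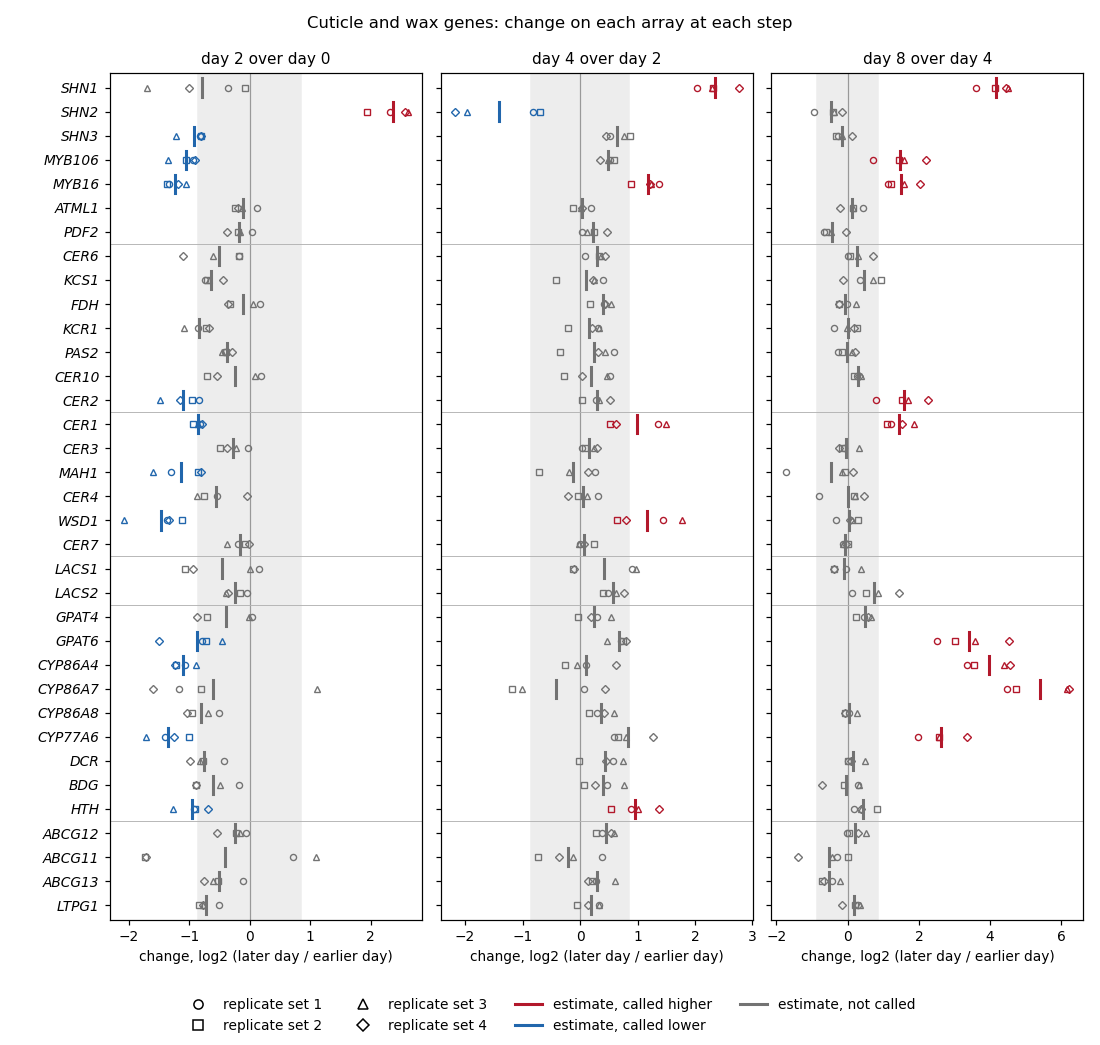
Change of each of the 35 tested genes on each array, on the log2 scale of later over earlier day (x axis), by gene (y axis, grouped by role) and step (panels). Open symbols are the 4 replicate sets, vertical bars the model estimates, red called higher, blue called lower, and the grey band marks changes under 1.8-fold. At day 2 over day 0 all bars but that of SHN2 lie left of 0, and at day 8 over day 4 the called genes lie at 1.43 or above.

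**Figure D2:**
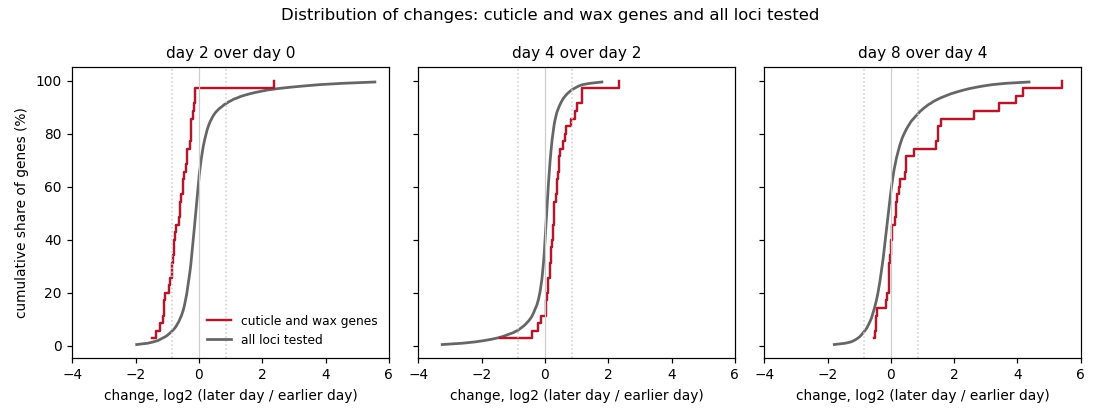
Cumulative share of genes (y axis, percent) by log2 change (x axis) for the 35 cuticle and wax genes (red) and for all loci tested (grey), with dotted lines at 1.8-fold in either direction. The red curve lies left of the grey one at day 2 over day 0 (medians -0.61 and -0.10) and right of it at the later steps (medians 0.30 and 0.06, then 0.16 and -0.08).

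The SHINE proteins are AP2/ERF-type transcription factors that activate cutin and wax genes, and their 3 members had 3 different courses. SHN1 (AT1G15360) measured 2.03, 2.32, 2.29 and 2.76 in sets 1 to 4 at day 4 over day 2 (2.35 ± 0.21, SE, n = 4, adjusted p = 6.88e-06). At day 8 over day 4 its values were 3.62, 4.14, 4.50 and 4.46 (4.18 ± 0.21, SE, n = 4, adjusted p = 4.45e-08). All 8 arrays of these steps showed a rise of at least 2.03. At day 2 over day 0 the values were -0.36, -0.07, -1.69 and -1.01, which averaged -0.78 ± 0.21 and stayed just under the fold minimum (adjusted p = 0.00899), although 1 of its 3 probes was called lower (-0.95). Without set 1 or without set 2 the brightest probe was called lower too (-0.99 and -0.96). Summed over the steps, SHN1 was 5.75 ± 0.37 higher at day 8 than at day 0, with 5.29, 6.39, 5.10 and 6.21 in the 4 sets. Its processed signal at day 8 was between 5498 and 10412 units, against 300.0 to 489.5 units at day 4 on the same arrays.

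SHN2 (AT5G11190) went the other way. Its values at day 2 over day 0 were 2.33, 1.95, 2.62 and 2.58 (2.37 ± 0.23, SE, n = 4, adjusted p = 5.17e-06) and thus at least 1.95 on every array. At day 4 over day 2 they were -0.82, -0.70, -1.96 and -2.18 (-1.42 ± 0.23, SE, n = 4, adjusted p = 0.000647). All 4 arrays declined, but sets 1 and 2, which shared a slide, averaged -0.76 and sets 3 and 4, on another slide, -2.07, so that the size of the decline differed between slides. At day 8 over day 4 the change was -0.47 ± 0.23 and was not called. The level at day 8 was 0.48 ± 0.40 above that of day 0, which did not pass the test (adjusted p = 0.35). All 3 probes of SHN2 gave the same calls.

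SHN3 (AT5G25390) changed least of the SHINE genes. Values of -0.82, -0.81, -1.23 and -0.80 at day 2 over day 0 gave -0.92 ± 0.10 (SE, n = 4, adjusted p = 1.02e-05), and all 3 probes were called lower. The array of set 3 lay apart from the others, and without it the change was -0.83, under the fold minimum (-0.82 without both arrays that lack a matching scanner file). The gene measured between 0.45 and 0.87 at day 4 over day 2 (0.65 ± 0.10) and at day 8 over day 4 between -0.33 and 0.12, neither called.

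MYB106 (AT3G01140) and MYB16 (AT5G15310) encode MIXTA-like MYB factors, which act with the SHINE genes in cuticle formation and shape conical petal cells and trichomes. MYB16 measured -1.33, -1.37, -1.05 and -1.19 at day 2 over day 0 (-1.23 ± 0.14, SE, n = 4, adjusted p = 1.27e-05). It then measured 1.37, 0.89, 1.24 and 1.22 at day 4 over day 2 (1.18 ± 0.14, adjusted p = 4.15e-05) and 1.12, 1.22, 1.57 and 2.04 at day 8 over day 4 (1.49 ± 0.14, adjusted p = 2.35e-06). Its decline was thus reversed by day 4, where the summed level averaged -0.05 relative to day 0, and exceeded by day 8 (1.44 ± 0.23, called higher). MYB106 declined likewise, with -0.93, -1.06, -1.35 and -0.90 at day 2 over day 0 (-1.06 ± 0.16, adjusted p = 0.000148), or -0.75 and not called with normexp and loess (local background capped). It rose at day 8 over day 4, with 0.71, 1.44, 1.58 and 2.19 (1.48 ± 0.16, adjusted p = 7.89e-06), while its change at day 4 over day 2 (0.48 ± 0.16) was not called. For both genes every probe gave the same call at each step. The net change of MYB106 was called with its brightest probe (0.90 ± 0.27) but with neither of its other 2 probes (0.75 and 0.74), and not without set 2, 3 or 4 (1.07, 0.80 and 0.73).

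The homeodomain factors ATML1 (AT4G21750) and PDF2 (AT4G04890), which specify epidermal identity in the outer cell layer, were not called at any step. ATML1 had estimates of -0.11, 0.03 and 0.13 over the 3 steps, each with an SE of 0.07, and none of its 4 tested probes was called. PDF2 had estimates of -0.18, 0.22 and -0.45 (SE 0.10). The interval of about 2 SE around these values stays within a change of 1.8-fold. Other epidermal markers outside the group, PDF1 and LTP1, were not called either, with changes between -0.41 and 0.71. In whole inflorescences, fewer cells of a type and less RNA per cell cannot be told apart, and the epidermal identity genes give the level of these factors only.

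**Figure D3:**
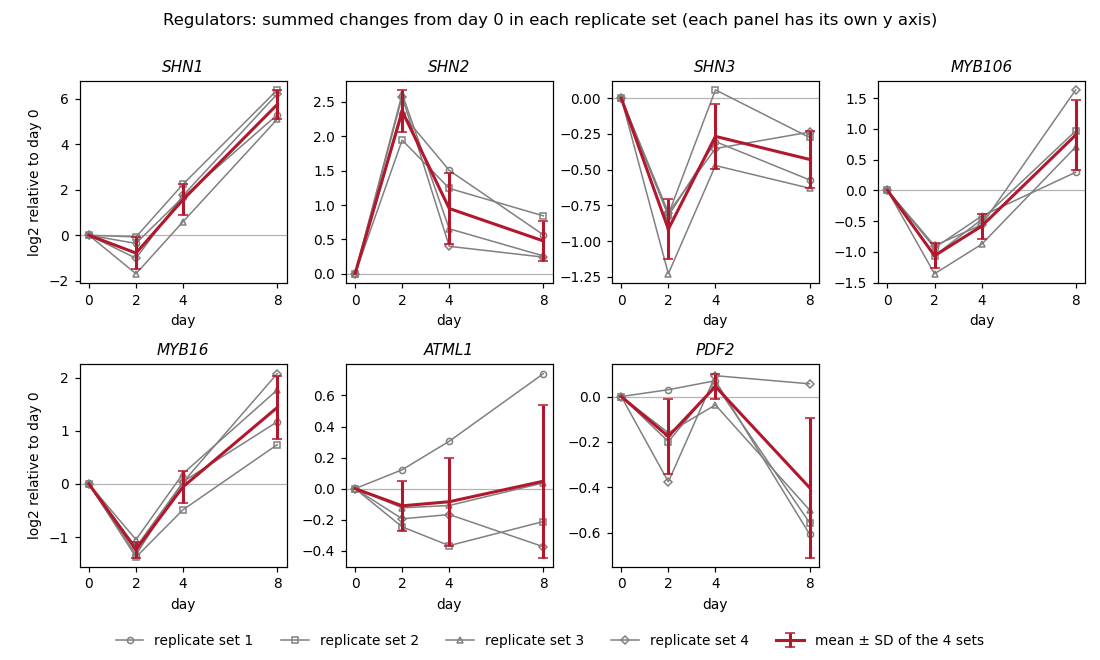
Level of the 7 regulators relative to day 0 (y axis, log2, the changes of each replicate set summed over the steps) by day (x axis). Grey lines are the 4 sets and the red line is their mean with SD as error bars. SHN1 reached 5.10 to 6.39 at day 8, SHN2 had its highest mean at day 2 (2.37), MYB106 and MYB16 were lowest at day 2 (-1.06 and -1.23), and the single sets of ATML1 and PDF2 lay between -0.61 and 0.74 throughout.

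Of 9 cutin genes tested, 4 were called lower at day 2 than at day 0, 1 was called higher at day 4 than at day 2, and 4 were called higher at day 8 than at day 4. Of all loci 5.42%, 3.23% and 12.3% had these calls, in the same order. CYP86A7 (AT1G63710) encodes a cytochrome P450 of the family that hydroxylates fatty acids at their end. It measured 4.48, 4.72, 6.17 and 6.23 at day 8 over day 4 (5.40 ± 0.43, SE, n = 4, adjusted p = 8.57e-07), the largest change at a single step among the 35 genes. Its processed signal was 1989 to 6274 units at day 8, against 37.4 to 117 units at day 4 on the same arrays. At day 2 over day 0 the array of set 3, whose scanner file did not match, gave 1.12 while the others gave between -1.60 and -0.80. The estimate of -0.61 ± 0.43 was not called, and without set 3 it was -1.22 and called lower.

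CYP86A4 (AT1G01600), of the same P450 family, rose by 3.34, 3.56, 4.38 and 4.56 at day 8 over day 4 (3.96 ± 0.19, SE, n = 4, adjusted p = 3.20e-08). It had been lower at day 2 than at day 0, with values between -1.24 and -0.89 (-1.10 ± 0.19, adjusted p = 0.000457), and hardly moved at day 4 over day 2 (0.10 ± 0.19). The third gene of this family, CYP86A8 (AT2G45970), was not called at any step (-0.80, 0.36 and 0.03, each ± 0.07), and its 4 values at day 8 over day 4 lay between -0.08 and 0.26, below every value of CYP86A4 and CYP86A7. Whether the probes of these related genes also bind transcripts of each other was not tested, since probe sequences were not used here. GPAT4 (AT1G01610) is the direct neighbour of CYP86A4 on chromosome 1. It measured 0.24 to 0.64 at day 8 over day 4 (0.48 ± 0.10) and was not called.

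GPAT6 (AT2G38110) encodes a glycerol-3-phosphate acyltransferase that joins cutin monomers to glycerol and is needed for petal surface ridges. Values of 2.50, 3.02, 3.57 and 4.53 at day 8 over day 4 gave 3.40 ± 0.25 (SE, n = 4, adjusted p = 4.73e-07). The earlier decline, -0.79, -0.73, -0.45 and -1.50 at day 2 over day 0 (-0.87 ± 0.25, adjusted p = 0.0123), rested on single arrays: without set 4 it was -0.65, without set 2 its adjusted p was 0.0672, and without the 2 arrays that lack a matching scanner file it was -0.76 and not called either. CYP77A6 (AT3G10570), the P450 that hydroxylates cutin monomers within the chain, fell by 1.40, 1.00, 1.72 and 1.26 at day 2 over day 0 (-1.35 ± 0.14, adjusted p = 8.61e-06). At day 8 over day 4 it measured 1.97, 2.56, 2.57 and 3.35 (2.61 ± 0.14, SE, n = 4, adjusted p = 6.45e-08). At day 4 over day 2 it was 0.83 ± 0.14 (adjusted p = 0.000808), just under the fold minimum, and called without set 2 (0.99). Summed from day 0 to day 8, CYP86A7, GPAT6, CYP86A4 and CYP77A6 were 4.36 ± 0.74, 3.22 ± 0.43, 2.96 ± 0.33 and 2.09 ± 0.24 higher, and all 4 were called.

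HTH (AT1G72970), the HOTHEAD oxidoreductase whose loss fuses floral organs, dipped and recovered. It measured -0.92, -0.91, -1.28 and -0.69 at day 2 over day 0 (-0.95 ± 0.12, adjusted p = 4.30e-05). At day 4 over day 2 it measured 0.88, 0.54, 1.01 and 1.38 (0.95 ± 0.12, adjusted p = 8.94e-05), or 0.83 without set 4, which is under the fold minimum. The mean level at day 4 was 0.00 relative to day 0. The decline was -0.81 and not called with normexp and loess (local background capped). The acyltransferase gene DCR (AT5G23940) and BODYGUARD (BDG, AT1G64670), which encodes an α/β-hydrolase-fold protein, had negative estimates at day 2 over day 0 (-0.75 and -0.61) and positive ones at day 4 over day 2 (0.44 and 0.39), all under the fold minimum.

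**Figure D4:**
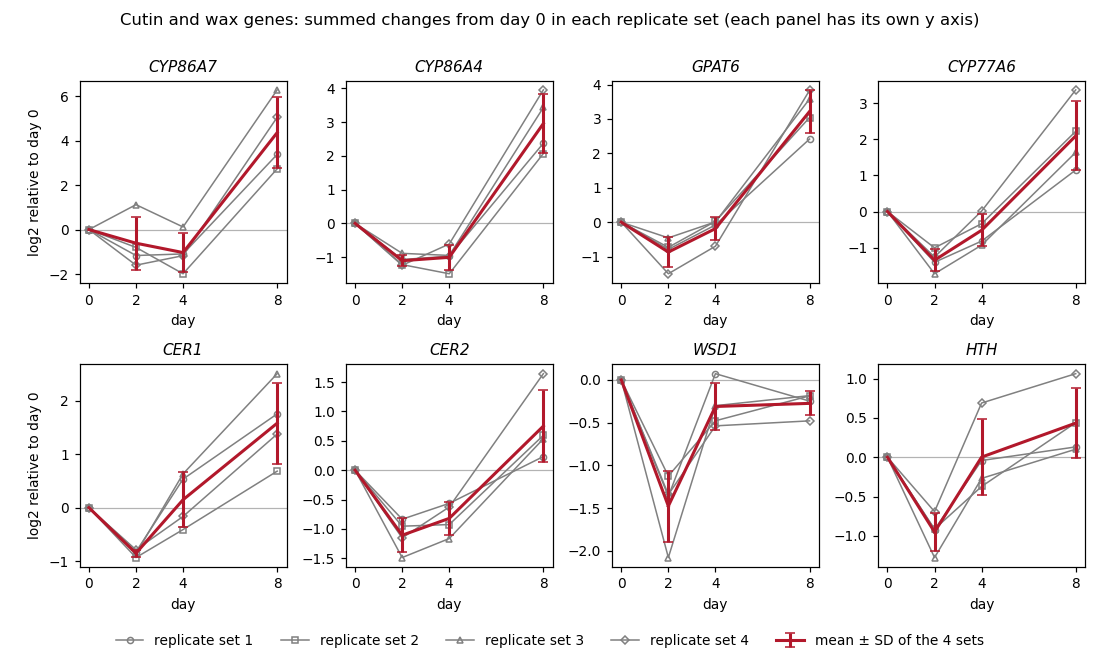
Level relative to day 0 (y axis, log2, summed over the steps within each replicate set) by day (x axis) for 8 cutin and wax genes. Grey lines are the 4 sets and the red line is their mean with SD as error bars. The upper row (CYP86A7, CYP86A4, GPAT6 and CYP77A6) ends at means of 4.36, 2.96, 3.22 and 2.09 at day 8, and WSD1 and HTH in the lower row at -0.27 and 0.43.

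Among genes of the wax branches, which turn very-long-chain fatty acids into final wax compounds, 3 of 6 were called lower at day 2 than at day 0. Of all loci 5.42% were called lower at that step. CER1 (AT1G02205), a core component of alkane synthesis, measured -0.82, -0.93, -0.86 and -0.79 at that step (-0.85 ± 0.13, adjusted p = 0.000177), on the edge of the fold minimum, and fell below it without set 1 (-0.78) or set 3 (-0.81). It then measured 1.36, 0.52, 1.49 and 0.62 at day 4 over day 2 (1.00 ± 0.13, adjusted p = 0.000102) and 1.22, 1.09, 1.87 and 1.54 at day 8 over day 4 (1.43 ± 0.13, SE, n = 4, adjusted p = 2.16e-06). At day 4 over day 2 the higher values came from sets 1 and 3, where the later day carried Cy5. Both probes of CER1 were called at all 3 steps, and the sum was 1.58 ± 0.22. CER3 (AT5G57800), the partner of CER1 in alkane synthesis, was not called at any step, with estimates of -0.28, 0.16 and -0.05 (SE 0.08).

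WSD1 (AT5G37300), the wax ester synthase, measured -1.36, -1.12, -2.08 and -1.34 at day 2 over day 0 (-1.48 ± 0.19, adjusted p = 5.76e-05), the largest decline in the group. It measured 1.44, 0.65, 1.78 and 0.80 at day 4 over day 2 (1.17 ± 0.19, adjusted p = 0.000698). On the array of set 3, which gave the highest of these values, its day 2 signal was not well above background. With normexp and loess (local background capped) the change was 0.57 and not called. At day 8 over day 4 it measured between -0.32 and 0.29. Its level at day 8 was -0.27 ± 0.34 relative to day 0 and not called. MAH1 (AT1G57750), the P450 that hydroxylates alkanes to secondary alcohols, was lower at day 2 and did not return. The values were -1.30, -0.86, -1.60 and -0.81 at day 2 over day 0 (-1.14 ± 0.24, adjusted p = 0.00199), and without the 2 arrays that lack a matching scanner file the call was lost (-1.08, adjusted p = 0.0535), as with normexp and loess (local background capped; -0.93, adjusted p = 0.0762). The sum over the steps was -1.73 ± 0.42 (adjusted p = 0.00456), with -2.78, -1.65, -1.94 and -0.53 in sets 1 to 4. Both probes of MAH1 gave these calls, and MAH1 was the 1 gene called lower for the sum. The sums of ABCG13, KCR1, CYP86A8 and LTPG1 (-0.71 to -0.36) had an adjusted p below 0.05 in the limma fit but missed the fold minimum. CER4 (AT4G33790), the reductase that forms primary alcohols, and CER7 (AT3G60500), a ribonuclease-type protein that acts on CER3 expression, were not called at any step, with estimates from -0.56 to 0.07.

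At day 2 over day 0 all 7 elongation genes had estimates below 0, with a median of -0.51, against -0.10 for all loci. CER2 (AT4G24510), a BAHD-type protein needed for the longest chains, was the only one of 7 with a call. It measured -0.83, -0.95, -1.49 and -1.15 at day 2 over day 0 (-1.11 ± 0.17, adjusted p = 0.000216), and 0.80, 1.52, 1.70 and 2.27 at day 8 over day 4 (1.57 ± 0.17, SE, n = 4, adjusted p = 1.01e-05). Of all loci 5.42% were called lower and 12.3% higher at these steps, in the same order. All arrays of a step had the same sign for CER2, but with normexp and loess (local background capped) its decline was -0.72 and not called. The condensing enzymes CER6 (AT1G68530), KCS1 (AT1G01120) and FIDDLEHEAD (FDH, AT2G26250) had estimates from -0.64 to 0.46. The remaining activities of the elongase, the reductase KCR1 (AT1G67730), the dehydratase PAS2 (AT5G10480) and the enoyl reductase CER10 (AT3G55360), lay between -0.83 and 0.28. KCR1 was nearest to a call, with -0.83 ± 0.11 at day 2 over day 0 (adjusted p = 8.27e-05), and was called without set 4 (-0.88). CER6, KCS1, PAS2 and CER10 also had an adjusted p below 0.05 in the limma fit at that step, but missed the fold minimum.

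Acyl-CoA synthetases activate fatty acids for both branches. LACS2 (AT1G49430), which serves cutin synthesis, had no call at a single step (-0.24, 0.57 and 0.73, each ± 0.15). Its sum from day 0 to day 8 was called higher (1.07 ± 0.27, adjusted p = 0.00553), with values between 0.57 and 1.87 in the 4 sets, but not without set 3 (adjusted p = 0.0764) or set 4 (0.78). LACS1 (AT2G47240) split by dye: at day 2 over day 0 its values were 0.15 and 0.01 in sets 1 and 3 and -1.08 and -0.94 in sets 2 and 4. Averaged over all steps it measured 0.40 with Cy5 on the later day and -0.50 with Cy3, and no step was called after the dye term.

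None of the 4 export genes was called at any step. Of all loci 3.23% to 12.3% were called per step and direction, and no call among 4 genes is near these shares. ABCG12 (AT1G51500) and ABCG11 (AT1G17840) encode ABC transporters that carry wax, and for ABCG11 also cutin, out of the cell. ABCG13 (AT1G51460), 3 genes away from ABCG12 on chromosome 1, serves the cuticle of flowers, and LTPG1 (AT1G27950) is a lipid transfer protein anchored at the cell surface. ABCG12, ABCG13 and LTPG1 had estimates between -0.72 and 0.45. ABCG11 had the widest dye split of the 35 genes, 0.23 with Cy5 and -0.99 with Cy3 on the later day over all steps, and its estimates carried an SE of 0.32. It was called lower at day 8 over day 4 only without set 2 (-0.94). The ABCG11 probe was dim, with 4 of 6 channels of day 2 and 7 of 8 of day 4 well above background. Its processed signal was 24.7 to 147 units at day 8, against 54.5 to 198 units at day 4 on the same arrays. For ABCG11 the lack of a call therefore does not show an unchanged level.

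Genes of the cuticle that were not among the 36, such as CYP86A2, CYP77A4, KCS5, MYB30, MYB94 and MYB96, were counted from a list of 19, of which 17 were tested. Day 2 over day 0 had 2 called higher (CYP77A4, 1.30, and MYB30, 0.92) and 1 lower (KCS5, -1.57), with a median of -0.08. At day 4 over day 2 none was called, and at day 8 over day 4 KCS5 (2.41) and CYP86A2 (1.32) were called higher. Their median at day 2 over day 0 was near that of all loci (-0.10), apart from that of the 35 genes (-0.61). Suberin genes, which make the related polyester of roots and seed coats, were mostly below detection, and 5 of 13 were tested. ABCG6 was called lower at day 2 over day 0, and FAR5 and ABCG6 were called higher at day 8 over day 4. FAR5 was well above background in 4 of 4 channels of day 8 and 0 of 8 of day 4, and ABCG6 in 0 of 4 of day 8 and 1 of 8 of day 4, so that no size is given for these changes.

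Markers of other epidermal and floral cell types moved over the same days. Stomatal lineage genes (SPCH, MUTE, FAMA, TMM, EPF1 and EPF2) had changes from -1.53 to -0.37 at day 2 over day 0, 2 of 6 called lower. At day 4 over day 2 they had 3 of 6 called higher, and at day 8 over day 4 6 of 6, with changes from 0.87 to 2.81 (FAMA over 3 arrays, without a value for set 2). The 2 called lower at day 2, MUTE (-1.53) and EPF1 (-1.24), were dim. They were well above background in 4 of 6 and 1 of 6 channels of day 2, and each in 6 of 8 of day 4. The sizes of their changes are therefore uncertain. Trichome genes were mixed, with GL1 (-2.09) and GL3 (-1.45) called lower, TRY (1.15) called higher and GL2 (-0.79) not called at day 2 over day 0. GL3 was well above background in 4 of 6 channels of day 2, and its sets ranged from -2.43 to -0.55 at that step. GL1 was called higher at day 4 over day 2 (1.13). At day 8 over day 4 GL3 was called higher (1.13) and GL2 lower (-1.26), and the sum of GL2 was called lower (-1.70). Of the 6 tapetum markers, AMS, DYT1 and TDF1 passed the filter on dim probes and A9, ATA7 and MS1 did not. The 3 that passed were well above background in 4 of 4 (DYT1, TDF1) or 2 of 4 (AMS) channels of day 8 and in 1 of 8 channels of day 4 each, so that the sizes of their changes are not given. The part of these cell types in the changes of the cuticle genes was not tested.

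**Figure D5:**
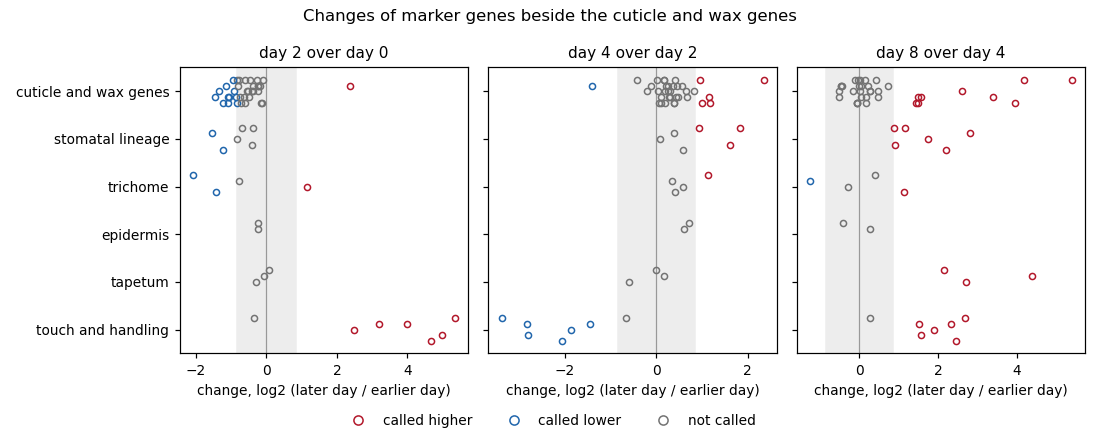
Change of each tested gene (x axis, log2 of later over earlier day) for the cuticle and wax genes and 5 marker lists (y axis) at each step (panels), with red for genes called higher, blue for genes called lower and a grey band for changes under 1.8-fold. The medians of the touch and handling genes alternate in sign over the steps (4.00, -2.07 and 1.90), and the 6 stomatal lineage genes all lie right of the band at day 8 over day 4.

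Of the 11 genes with several probes, the probes differed in a step's call only for SHN1 at day 2 over day 0 and in the net call only for MYB106. On each of the 2 slides alone, 4 of 6 called genes were past 1.8-fold at day 4 over day 2, without SHN2 and HTH, and 9 of 9 at day 8 over day 4, while for day 2 over day 0 the slide of 2 arrays was not established. Among the 35 genes, 21 had no call at any step, a share that was not computed for all loci. The most frequent course among the other 14 was lower at day 2, not called at day 4 and higher at day 8, found in CER2, CYP77A6, CYP86A4, GPAT6 and MYB106. CER1 and MYB16 were lower at day 2 and higher at day 4 and again at day 8, and HTH and WSD1 were lower at day 2 and higher at day 4 alone.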

How the data were processed

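Values came from the deposited series table, where the authors give log10 of the Cy5 to Cy3 ratio. Background subtraction and dye normalisation were done in Feature Extraction (version 10.5.1.1 in the file headers). The deposited scanner files give intensity values (processed and median signals, local background) and quality marks. Ratios were converted to log2 and turned to later over earlier day. On 10 arrays at least 99.98% of ratios matched the scanner file (within 0.0001). Replicates 3 and 4 of day 2 over day 0 matched for 16.3% and 20.2%, and their marks were not used. Exact ratios of 0 made up 11.8% to 29.9% of probes per array.

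A probe was kept when 50% or more of the channels of any 1 day were marked well above background (28247 of 43643), and 718 outlier spots were left out. limma 3.58.1 (R 4.3.3) fitted the 3 steps and a dye term over 12 arrays, with an intensity trend. Arrays that share extracts were treated as independent. Adjusted p-values cover all kept probes of a step. Each array compared days of the same set, so that the pairing is within the ratio. In simulated arrays for day 2 over day 0 (28247 probes), 65% of changes of 1 and 99% of changes of 2 (log2) were recovered. Every one of the 36 genes is named. Values of each set are given for most called changes of a step, and ranges or estimates for the rest. Genes and lists were chosen with earlier results of these data known. The array was designed on older gene models, and symbols were matched through a TAIR10.1 table. The number of arrays limits the precision.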

Additional observations from a re-analysis of the deposited data

Results flagged for a closer look

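Among the 35 genes at 3 steps, each with 4 arrays, 2 cases held an array far from the others, and chance alone gives about 1 in 20 such cases. SHN3 measured -1.23 in set 3 at day 2 over day 0, against -0.82 to -0.80 in the other sets, on an array whose scanner file did not match. MAH1 measured -1.74 in set 1 at day 8 over day 4, against -0.15 to 0.14 in the other sets.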

How the results depend on the processing

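Of 37 called changes (steps and net), none reversed in sign under the 15 alternatives, and 504 of 555 alternative values kept the call. The alternative without a fold minimum reuses the reported fit, so its values could neither lose a call nor reverse. Estimates of the cuticle genes were also unchanged by omitting the dye term, adding a replicate or slide block, or keeping outlier spots or dim probes. The dye, replicate and slide terms are balanced within each step. These alternatives could alter an adjusted p but could not reverse a sign. Without a fold minimum, the genes called higher were 16 at day 4 over day 2 and 15 at day 8 over day 4, and those called lower were 28 at day 2 over day 0, 2 at day 8 over day 4 and 5 for the net change. Shares of all loci called under the alternatives were not computed, so these counts have no background to be set beside. With normexp and loess on the 10 matching arrays, genes called higher were 1 at day 4 over day 2 and 0 for the net change, and genes called lower 2 at day 2 over day 0 and 0 at day 4 over day 2. In that fit up to 37 spots per array had a local background over 50 units above their signal, and the corrected Cy3 median reached 1195 units, against 83 units uncorrected. With the background capped at its 99th percentile, an alternative chosen after seeing the data, the corrected median was at most 125 units, genes called lower at day 2 over day 0 were 4, no other count left 1.5 times the reported one, and WSD1 lost its call at day 4 over day 2 (0.57). In this fit day 2 over day 0 rests on 2 arrays and day 4 over day 2 on 4. The cause of the lost calls was not tested. The replicate block kept 11 genes lower and 1 higher at day 2 over day 0 and changed no call. The slide as block and the fit without a dye term changed none either. Leaving out 1 set at a time gave 0 to 1 genes called lower at day 8 over day 4.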
